A study of Mus musculus with 6 samples.

Results

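Amelx, Ambn, Enam, Mmp20, Fam20a, Fam20c, Fam83h and Dnajc12, a set of 8 genes linked to the secretory stage of enamel formation, were followed in RNA from the proximal mouse incisor. They were chosen by name, and all 8 were found among the 25700 genes of the deposited count table. RNA had been sequenced from 6 C57BL/6 mice aged 5 weeks, 3 of genotype Runx2fl/fl (controls, which carry the floxed Runx2 gene and no Cre) and 3 of genotype Gli1-CreERT2;Runx2fl/fl (called cKO here). The labels give the same tamoxifen protocol for both groups, with 1.5 mg per 10 g body weight injected daily for 3 days at 1 month of age, and the series' design places collection 1 week after induction. CreERT2 under Gli1 is active in cells that express Gli1 when tamoxifen is present, and the deletion passes to their descendants. Runx2 in cells outside these lineages is not the target. An effect of the Cre allele itself cannot be told apart from loss of Runx2. The comparison asked how removing Runx2 from Gli1-expressing cells and their descendants altered the transcripts of the proximal incisor.

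Enamel is laid down by ameloblasts, epithelial cells that in the continuously growing mouse incisor pass from a proliferating to a secretory and then to a maturation stage along the tooth. Secretory ameloblasts release amelogenin (Amelx), ameloblastin (Ambn) and enamelin (Enam), which form the soft matrix in which enamel crystals lengthen, and the protease enamelysin (Mmp20), which cuts these proteins as they are deposited. Fam20c is a kinase of the secretory pathway that phosphorylates secreted proteins, enamel proteins among them, and Fam20a is a pseudokinase that binds and activates it. Fam83h encodes a cytoplasmic protein that binds casein kinase 1 and is linked to the keratin network. Mutations in the human counterparts of all of these genes are known causes of inherited enamel defects. Dnajc12 is a co-chaperone of the heat shock protein 40 family, best known as a partner of the aromatic amino acid hydroxylases.

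The libraries held 53525185 to 66694240 estimated counts. Runx2, the targeted gene, measured 79.7, 77.7 and 81.2 CPM (counts scaled to a library size of 1e+06 after TMM) in controls 1 to 3 and 62.6, 54.0 and 49.0 CPM in cKO mice 1 to 3. All cKO values were below all control values, and the difference missed the threshold of an adjusted p under 0.05 (log2 fold change -0.53, edgeR adjusted p = 0.0714). Control 1 was the 1 library with Ddx3y, a Y-linked gene (4059 counts, at most 1 elsewhere), and with skeletal muscle transcripts, whose 6 markers summed to 336 CPM there and to 12.1 to 15.6 CPM in the other libraries. The neutrophil markers S100a8, S100a9, Ngp, Ltf, Camp and Elane summed to 40.6 and 18.2 CPM in cKO 1 and cKO 2 and to 1.28 to 2.13 CPM in the other 4 libraries. The part of these libraries' cell makeup in the results was not tested, and the log2 fold changes of the 8 genes and the counts of genes called were also computed without each library.

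The labels name the tissue dental mesenchyme, but the libraries held abundant enamel transcripts. Amelx was the most abundant gene in 4 of the 6 libraries, all 3 controls and cKO 2, and Col1a1 was in cKO 1 and cKO 3. The 8 genes together took 6.05%, 6.04% and 7.91% of all counts in controls 1 to 3 and 3.35%, 4.69% and 2.22% in cKO 1 to 3, so the control and cKO shares did not overlap. All 8 epithelium markers examined (Epcam, Cdh1, Krt5, Krt14, Krt17, Trp63, Sox2 and Shh) and all 7 mesenchyme markers (Vim, Col1a1, Col1a2, Twist1, Prrx1, Msx1 and Pdgfra) were detected. The epithelium markers summed to 2527, 2922 and 3394 CPM in control mice against 3625, 2780 and 2211 CPM in cKO mice.

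The 8 genes spanned more than 4 orders of magnitude once levels were divided by exonic length. Mean levels in controls were 34550 CPM per kb for Amelx, 11974 for Ambn, 1568 for Enam and 166 for Mmp20. The others followed at 26.6 CPM per kb for Fam20a, 14.4 for Fam20c, 5.10 for Fam83h and 0.942 for Dnajc12. This order held within each of the 6 libraries. Across libraries the ranges of neighbours in the order did not overlap except for Amelx (10170 to 42512 CPM per kb) and Ambn (4530 to 13824). Over all libraries Amelx ranked first and Ambn the third of 25457 genes with a known exonic length, Enam ranked 28 and Mmp20 200. Lengths were unions of GENCODE exons, so they ignore which isoform was made.

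**Figure D1:**
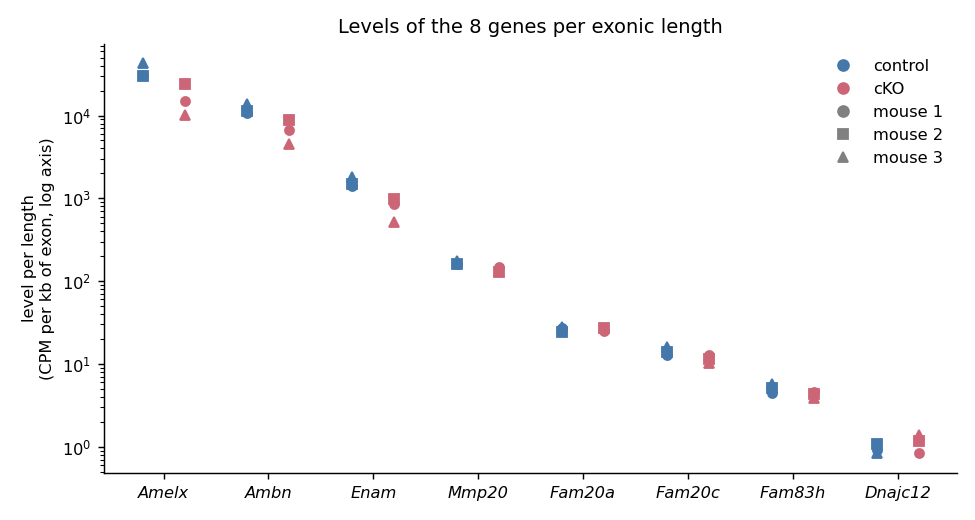
Levels of the 8 genes in CPM per kb of exon on a log axis, with controls in blue, cKO in red and 1 symbol per mouse. The order from Amelx, at 34550 CPM per kb in controls, to Dnajc12, at 0.942, was the same in each library.

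The genes of the enamel matrix proteins were lower in each cKO mouse than in any control. None of them passed the edgeR threshold, although their fold differences were the largest of the 8. Amelx, which encodes the main matrix protein (chromosome X, 169176114 to 169187200 on the minus strand, build mm10), measured 31169, 29907 and 42469 CPM in controls 1 to 3 and 15013, 23779 and 10159 CPM in cKO 1 to 3. The highest cKO library, cKO 2, lay below the lowest control by a factor of 1.26. The means were 34515 ± 6917 and 16317 ± 6903 CPM (SD, n = 3 each), a log2 fold change of -1.08 (SE 0.33, 95% interval -1.85 to -0.31) that did not pass (edgeR adjusted p = 0.170). In bulk tissue, fewer secretory ameloblasts and less RNA per ameloblast cannot be told apart.

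Ambn, which encodes a matrix protein that also binds ameloblasts (chromosome 5, 88455991 to 88468531), measured 20712, 21696 and 26528 CPM in control mice against 12757, 17086 and 8693 CPM in cKO mice. The order of the libraries was that of Amelx except that control 1 and control 2 changed places, with control 3 highest and cKO 3 lowest for both genes. The log2 fold change of Ambn was -0.84 (SE 0.26, 95% interval -1.46 to -0.22, edgeR adjusted p = 0.180). Enam, the largest and least abundant of the matrix proteins (chromosome 5, 88487975 to 88506049, downstream of Ambn on the same strand), measured 7629, 8232 and 9970 CPM in control mice against 4727, 5397 and 2877 CPM in cKO mice. Its libraries stood in the same order as those of Ambn, and the lowest control exceeded the highest cKO by a factor of 1.41, the widest gap among the 8. For Enam the fit gave -0.99 (SE 0.24, 95% interval -1.57 to -0.41, edgeR adjusted p = 0.120). DESeq2 called Ambn (adjusted p = 0.00498) and Enam (adjusted p = 0.000350) lower in cKO but not Amelx (adjusted p = 0.0662).

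For the 3 matrix genes the spread between cKO mice was wider than that between controls. The ratio of the highest to the lowest mouse was 2.34 for Amelx, 1.97 for Ambn and 1.88 for Enam among the cKO mice. Among the controls it was 1.42, 1.28 and 1.31. Counting error was small against this spread, since the smallest of these counts, Enam in cKO 3, was 179666 (counting error 0.236%). Leaving out cKO 2 gave log2 fold changes of -1.45, -1.09 and -1.17 for Amelx, Ambn and Enam, and leaving out cKO 3 gave -0.83, -0.62 and -0.77. Without control 1, the mouse with a Y-linked transcript, the X-linked gene Amelx was at -1.14. No fit without 1 library called any of the 3 genes.

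**Figure D2:**
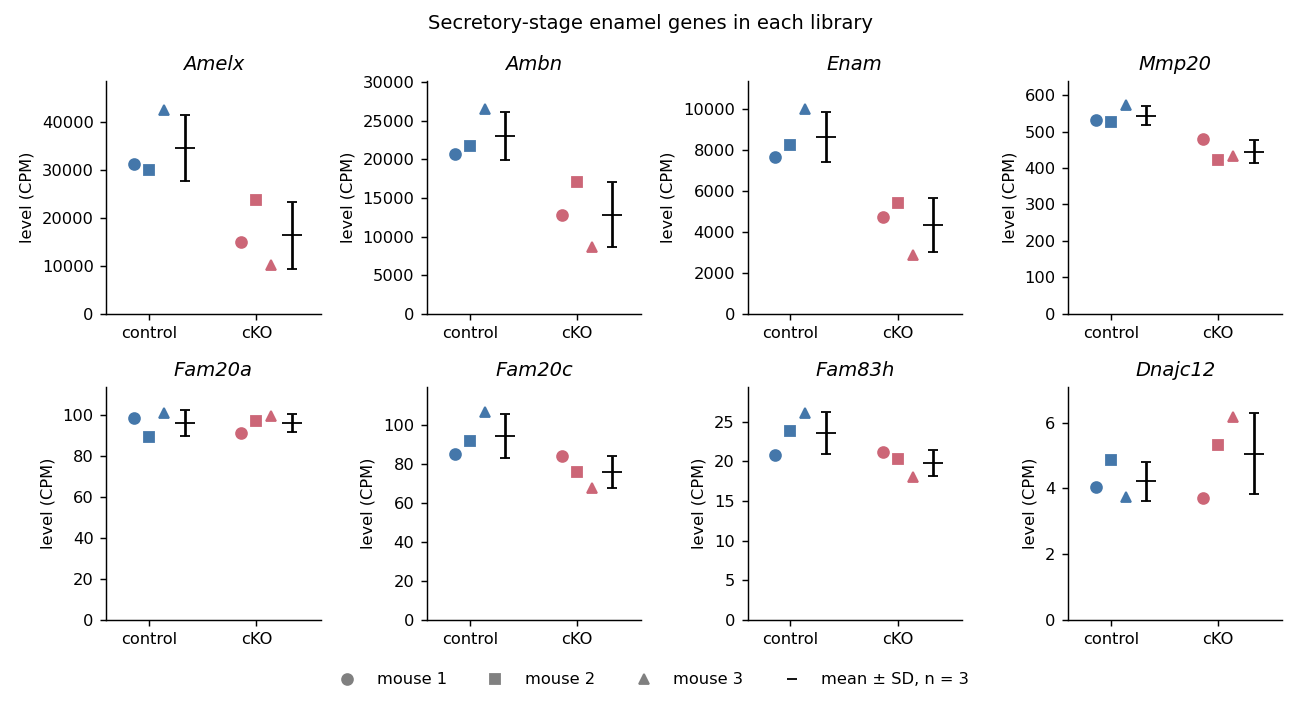
Level of each gene in CPM (y axis from 0, a separate scale per gene) in control (blue) and cKO (red) mice, 1 symbol per mouse, with the mean and SD (n = 3) in black. Amelx, Ambn, Enam, Mmp20 and Fam20c were higher in all 3 controls than in any cKO mouse, whereas Fam20a, Fam83h and Dnajc12 overlapped.

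The sequence before the start of each matrix gene and of Mmp20 is shown because these 4 genes encode the secreted matrix proteins and their protease and had lower values in every cKO mouse, as Fam20c also had. The windows run over the 250 bases before the RefSeq start (build GRCm38.p6), 5′ to 3′ on the gene's strand, at chrX:169187210-169187459 (minus strand) for Amelx, chr5:88455741-88455990 for Ambn, chr5:88487725-88487974 for Enam and chr9:7627981-7628230 for Mmp20. Capitals mark TATAAA and CCAAT on either strand (CCAAT reads ATTGG on the other strand).
Amelx: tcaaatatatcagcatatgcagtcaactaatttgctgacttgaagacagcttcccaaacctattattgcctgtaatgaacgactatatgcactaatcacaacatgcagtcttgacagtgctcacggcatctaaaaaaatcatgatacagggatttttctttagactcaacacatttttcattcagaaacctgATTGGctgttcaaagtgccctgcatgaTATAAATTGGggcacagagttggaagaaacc
Ambn: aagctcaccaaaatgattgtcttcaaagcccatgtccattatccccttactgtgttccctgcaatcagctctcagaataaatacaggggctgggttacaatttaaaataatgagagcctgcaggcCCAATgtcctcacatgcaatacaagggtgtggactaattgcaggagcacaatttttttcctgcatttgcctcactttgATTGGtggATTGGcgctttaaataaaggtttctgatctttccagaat
Enam: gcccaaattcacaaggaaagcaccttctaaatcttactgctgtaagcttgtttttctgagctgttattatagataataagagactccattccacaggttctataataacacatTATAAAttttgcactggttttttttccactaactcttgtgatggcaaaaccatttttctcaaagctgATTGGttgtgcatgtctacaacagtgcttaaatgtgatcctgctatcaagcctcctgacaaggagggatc
Mmp20: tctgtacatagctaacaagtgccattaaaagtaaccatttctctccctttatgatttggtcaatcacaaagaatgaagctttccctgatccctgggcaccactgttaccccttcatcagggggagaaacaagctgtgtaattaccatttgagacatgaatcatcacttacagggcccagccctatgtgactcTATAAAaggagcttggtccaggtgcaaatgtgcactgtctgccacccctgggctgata
Of the 8 genes, 6 matched the RefSeq promoter table, all but Fam83h and Dnajc12. ATTGG lay 58 bases before the start in Amelx, 47 and 39 bases before it in Ambn and 70 bases before it in Enam. A second ATTGG in Amelx, 26 bases before the start, overlaps the TATAAA that begins at 31 bases. CCAAT in either direction was present in 5 of the 6 windows, Mmp20 being the exception, and in 33.8% of all 32851 promoters of the same length. TATAAA on either strand was in Amelx, Enam (137 bases before the start) and Mmp20 (58 bases before the start), and in 12.4% of all promoters. The letters TGTGGT and TGCGGT, forms of the RUNX site, were on neither strand of the 6 windows, against 14% and 5.1% of all promoters, and the GLI site GACCACCCA was also in none (0.225% of all). The homeobox letters TAATTG were in Ambn only (7.17% of all). The GC content was 38.4% for Amelx, 42.0% for Ambn, 37.6% for Enam and 45.6% for Mmp20, below the median of 52.4%, while it was 61.2% for Fam20a and 81.2% for Fam20c.

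Mmp20, the protease of the secretory stage (chromosome 9, 7628231 to 7674979), also had lower values in every cKO mouse, by a smaller factor. It measured 532, 527 and 573 CPM in control mice against 481, 421 and 434 CPM in cKO mice. Control 3 was highest, as for the matrix genes, but the lowest library was cKO 2, which was the highest of the cKO mice for Amelx, Ambn and Enam. The log2 fold change was -0.29 (SE 0.079, 95% interval -0.48 to -0.10, edgeR adjusted p = 0.140). DESeq2 called Mmp20 lower (adjusted p = 0.0132).

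The proportions of the 4 transcripts were compared within each library, over 6 pairs of genes. The ratio of Ambn to Enam in CPM was 2.72, 2.64 and 2.66 in control mice against 2.70, 3.17 and 3.02 in cKO mice. The ratio of Amelx to Mmp20 was 58.6, 56.7 and 74.1 in control mice against 31.2, 56.5 and 23.4 in cKO mice, where cKO 2 came close to control 2. The ratio of Enam to Mmp20 was 14.3, 15.6 and 17.4 in control mice against 9.83, 12.8 and 6.63 in cKO mice. The groups did not overlap for Amelx to Mmp20 and for Enam to Mmp20, and they overlapped for the 4 other pairs. With 3 against 3 mice the exact two-sided permutation test cannot go below p = 0.1, the value reached by these pairs (0.24 after Benjamini-Hochberg adjustment over the 6).

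Proteases related to Mmp20 and their tissue inhibitors (Mmp2, Mmp14, Mmp13, Timp1, Timp2, Timp3 and Adam10) were set beside it. None of the 7 passed (edgeR, lowest adjusted p = 0.0831), with 4 log2 fold changes above 0, 3 below 0 and a median of 0.058. At an unadjusted p under 0.05 there were 1 lower (Mmp13) and 1 higher (Timp1), and DESeq2 called 1 lower and 0 higher. The shares of all genes tested were 8.55% lower and 8.71% higher at that level, and 3.27% and 3.62% by DESeq2. Mmp13, collagenase 3, measured 293, 81.3 and 492 CPM in control mice against 33.4, 36.1 and 19.2 CPM in cKO mice. All controls lay above all cKO mice, with control 2 nearest to them, and the log2 fold change of Mmp13 was -3.29 with an SE of 0.62 (edgeR adjusted p = 0.0831). Timp1, an inhibitor of these proteases, measured 7.35, 9.03 and 8.56 CPM in control mice against 12.1, 9.17 and 11.7 CPM in cKO mice (0.40, edgeR adjusted p = 0.207).

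Fam20a, the pseudokinase (chromosome 11, 109669749 to 109722279), showed no separation of the groups. It measured 98.8, 89.4 and 101 CPM in control mice against 91.4, 97.4 and 99.9 CPM in cKO mice. The lowest and the highest library were both controls. The log2 fold change was -0.0044 (SE 0.066, edgeR adjusted p = 0.981), with a 95% interval of -0.16 to 0.15, and its sign changed with the scaling (0.0026 with upper-quartile factors). Fam20c, the kinase (chromosome 5, 138754514 to 138810077), measured 85.2, 91.9 and 107 CPM in control mice against 84.1, 76.0 and 67.7 CPM in cKO mice. The cKO values all lay below the controls, but cKO 1 was only 1.01 times below control 1. For Fam20c the fit gave a log2 fold change of -0.32 (SE 0.11, 95% interval -0.57 to -0.06, edgeR adjusted p = 0.206). Both genes are expressed in other tissues too, so their RNA here need not come from ameloblasts.

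The relative Fam20b, which phosphorylates a sugar of proteoglycans, and the secreted phosphoproteins Dspp, Dmp1, Spp1, Ibsp and Mepe were examined beside Fam20c. None of these 6 genes passed (edgeR, lowest adjusted p = 0.0878), with 4 above 0, 2 below 0 and a median of 0.44 on the log2 scale, against 0.000048 over all 19264 genes tested. At an unadjusted p under 0.05 there were 3 higher and 1 lower, and DESeq2 called 2 higher and 1 lower. Among all genes tested the shares were 8.71% higher and 8.55% lower at that level, and 3.62% and 3.27% by DESeq2. Dmp1, an acidic protein of the dentin matrix, stood at 37.6, 38.5 and 14.6 CPM in control mice against 97.6, 104 and 206 CPM in cKO mice (a difference of 2.17 on the log2 scale, edgeR adjusted p = 0.0878). Dspp, the main phosphoprotein precursor of dentin, measured 4517, 3121 and 2630 CPM in control mice against 11717, 5777 and 11052 CPM in cKO mice. Values of both genes were higher in every cKO mouse (for Dspp a log2 fold change 1.48, edgeR adjusted p = 0.0948), the direction opposite to that of the enamel matrix genes.

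Fam83h (chromosome 15, 76001093 to 76014336) measured 20.8, 23.9 and 26.1 CPM in control mice against 21.2, 20.3 and 18.0 CPM in cKO mice. The groups overlapped, since cKO 1 lay above control 1. The log2 fold change was -0.25 (SE 0.10, 95% interval -0.49 to -0.0077, edgeR adjusted p = 0.275). Of 10 other FAM83 and casein kinase 1 genes, 8 were tested, and Fam83a and Fam83e were below the filter on low counts. All 8 had log2 fold changes below 0, from -0.66 to -0.024, and none passed (edgeR, lowest adjusted p = 0.167, 3 at an unadjusted p under 0.05, 2 called lower by DESeq2). For all genes tested the share lower was 8.55% at that unadjusted level and 3.27% by DESeq2. Fam83d measured 13.2 ± 2.03 and 9.73 ± 0.762 CPM and Fam83g 48.5 ± 6.70 and 33.1 ± 7.12 CPM (SD, n = 3 each), while the kinases Csnk1a1, Csnk1d and Csnk1e were at -0.043, -0.024 and -0.053.

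Dnajc12 (chromosome 10, 63382443 to 63410576) was the least abundant of the 8 and the only one with a log2 fold change above 0. It measured 4.04, 4.87 and 3.73 CPM in control mice against 3.72, 5.31 and 6.17 CPM in cKO mice, from 217 to 385 counts. The lowest and the highest library were both cKO mice, and the groups overlapped. The log2 fold change was 0.26 (SE 0.21, 95% interval -0.23 to 0.75, edgeR adjusted p = 0.569), and it was 0.10 without cKO 3 and 0.45 without cKO 1. Of the hydroxylases, Th measured 12.4 ± 3.08 and 11.1 ± 2.79 CPM, and Tph1 was below the filter. The chaperone Hspa8 measured 1534 ± 193 and 1463 ± 75.7 CPM. Neither Th nor Hspa8 passed (edgeR adjusted p = 0.771 and 0.803, unadjusted p = 0.510 and 0.565), and DESeq2 called neither.

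Over the 8 genes, 0 passed the edgeR threshold of an adjusted p under 0.05, against 0.0260% of all genes tested. At an unadjusted p under 0.05, 6 were lower in cKO (all but Fam20a and Dnajc12) and 0 higher, where the share of all genes lower at that level was 8.55%. DESeq2 called 3 lower (Ambn, Enam and Mmp20) and 0 higher, with 3.27% of all genes called lower. In 5 of the 8 all controls lay above all cKO mice, and in 0 the reverse, while 12.0% of all genes tested had all controls higher and 11.1% all cKO mice higher. The median log2 fold change of the 8 was -0.30. Because the genes were picked with results of these data known, these counts describe them and are not a test of the group. The number of genes called over the whole table was 5, and it was 0 without control 1, 0 without cKO 1, 0 without cKO 2, 72 without control 2, 3 without control 3 and 8 without cKO 3. None of the 8 was among the genes called in these fits (4 to 7 of them at an unadjusted p under 0.05).

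**Figure D3:**
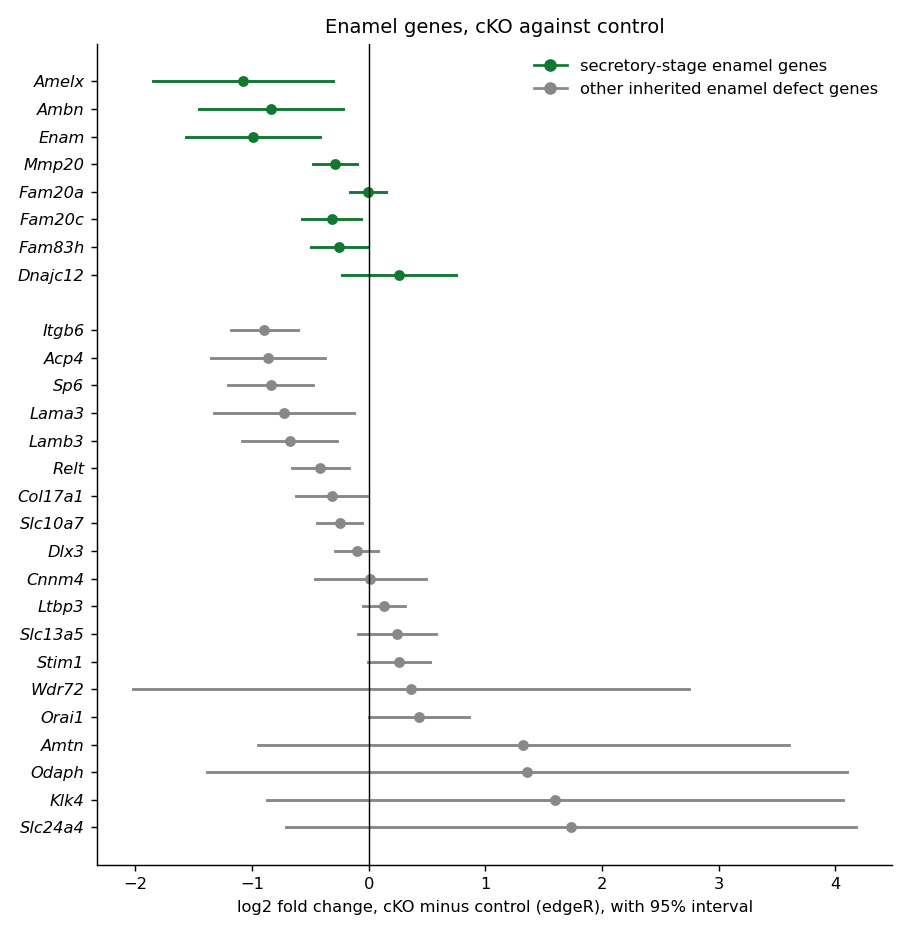
Log2 fold changes, cKO minus control, with 95% intervals from the edgeR fit, for the 8 secretory-stage enamel genes (green) and 19 other genes of inherited enamel defects (grey). Amelx, Ambn and Enam lie between -1.08 and -0.84, Fam20a lies at -0.0044, and Klk4, Amtn, Odaph, Slc24a4 and Wdr72 have the widest intervals.

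Among 19 other genes known to be mutated in inherited enamel defects, 0 passed by edgeR, with 10 log2 fold changes above 0, 9 below 0 and a median of 0.013. At an unadjusted p under 0.05 there were 8 lower and 1 higher, and DESeq2 called 6 lower and 0 higher. Of all genes tested, 8.55% were lower and 8.71% higher at that level, and DESeq2 called 3.27% lower and 3.62% higher. Without control 2, edgeR called Amtn and Klk4 higher. All controls lay above all cKO mice for 7 of the 19, and all cKO mice above all controls for 0. Over all genes tested these shares were 12.0% and 11.1%. Itgb6, an integrin subunit of ameloblasts, measured 43.9, 54.8 and 56.7 CPM in control mice against 29.9, 29.7 and 24.1 CPM in cKO mice. The log2 fold change of Itgb6 was -0.89 with an SE of 0.12 (edgeR adjusted p = 0.0614). Sp6, a transcription factor of dental epithelium, measured 520, 457 and 668 CPM in control mice against 321, 333 and 264 CPM in cKO mice. Sp6 was at -0.84 on the log2 scale, and the laminin chains Lama3 and Lamb3, which anchor epithelium to its basement membrane, were at -0.73 and -0.68 (edgeR adjusted p = 0.0819, 0.214 and 0.128).

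The pattern of the matrix genes and Mmp20 over the 6 libraries was set against that of 13459 other genes, by the root mean square difference of log2 values centred on each gene's mean. These were tested genes with a mean of at least 1 CPM, and genes with predicted-gene or clone names were left out. Acp4, an acid phosphatase that is 1 of these 19 genes, was the closest, with a difference of 0.0414. It measured 176, 181 and 220 CPM in control mice against 110, 134 and 73.5 CPM in cKO mice, so its libraries stood in the order of Ambn and Enam. Ston2 (an endocytic adaptor, 0.0532), Cobl (an actin nucleator, 0.0794), Gal3st4 (a sulfotransferase, 0.0879) and Aplp1 (a relative of the amyloid precursor protein, 0.0921) followed. The log2 fold changes of these 5 genes lay between -0.92 and -0.67, and none passed (edgeR adjusted p from 0.0918 to 0.149). Within the 8, the difference from the same mean pattern was 0.0673 for Ambn, 0.118 for Enam, 0.220 for Amelx and 0.367 for Mmp20, which make up that mean. It was 0.318 for Fam20c, 0.349 for Fam83h, 0.491 for Fam20a and 0.666 for Dnajc12. Of the 13459 genes, 2 lay closer to the mean pattern than Ambn did and 23 closer than Enam. Amelx had 173 genes closer and Mmp20 had 1050. Fam20c, which is not part of the mean, had 569. The values describe likeness over 6 libraries only.

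Genes of the maturation stage did not follow the secretory genes across libraries. Amtn, an adhesive protein of maturing enamel, measured 77.7, 916 and 78.4 CPM in control mice against 1372, 733 and 584 CPM in cKO mice. Control 2 thus resembled the cKO mice for Amtn while its Amelx level, 29907 CPM, was that of the controls. Klk4, the protease that clears the matrix, measured 5.64, 85.0 and 4.12 CPM in control mice against 129, 90.5 and 68.6 CPM in cKO mice. Slc24a4, an ion exchanger of maturation ameloblasts, stood at 5.55, 58.1 and 3.95 CPM in control mice against 141, 50.8 and 34.5 CPM in cKO mice. The 7 maturation genes (Klk4, Amtn, Odam, Odaph, Wdr72, Slc24a4 and Csn3) summed to 112, 1802 and 98.2 CPM in control mice against 2638, 1455 and 1113 CPM in cKO mice, and none passed (edgeR, lowest adjusted p = 0.0669, for Csn3, the 1 gene at an unadjusted p under 0.05 and the 1 called by DESeq2). Over all genes tested, 8.71% were higher at that unadjusted level and DESeq2 called 3.62% higher. With the mean log2 level of the 7 maturation genes as a covariate, the log2 fold changes were -0.87 for Amelx, -0.78 for Ambn and -0.98 for Enam. In that fit 1 of the 8 secretory-stage genes (Enam) was at an unadjusted p under 0.05, against 6 without the covariate, and the edgeR adjusted p of Amelx, Ambn and Enam was 0.836, 0.809 and 0.736. Their standard errors were wider with the covariate, at 0.48, 0.40 and 0.37 against 0.33, 0.26 and 0.24 without it. Whether the incisor segment collected differed between mice is not stated in the labels, and its part in the enamel results was not tested.

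**Figure D4:**
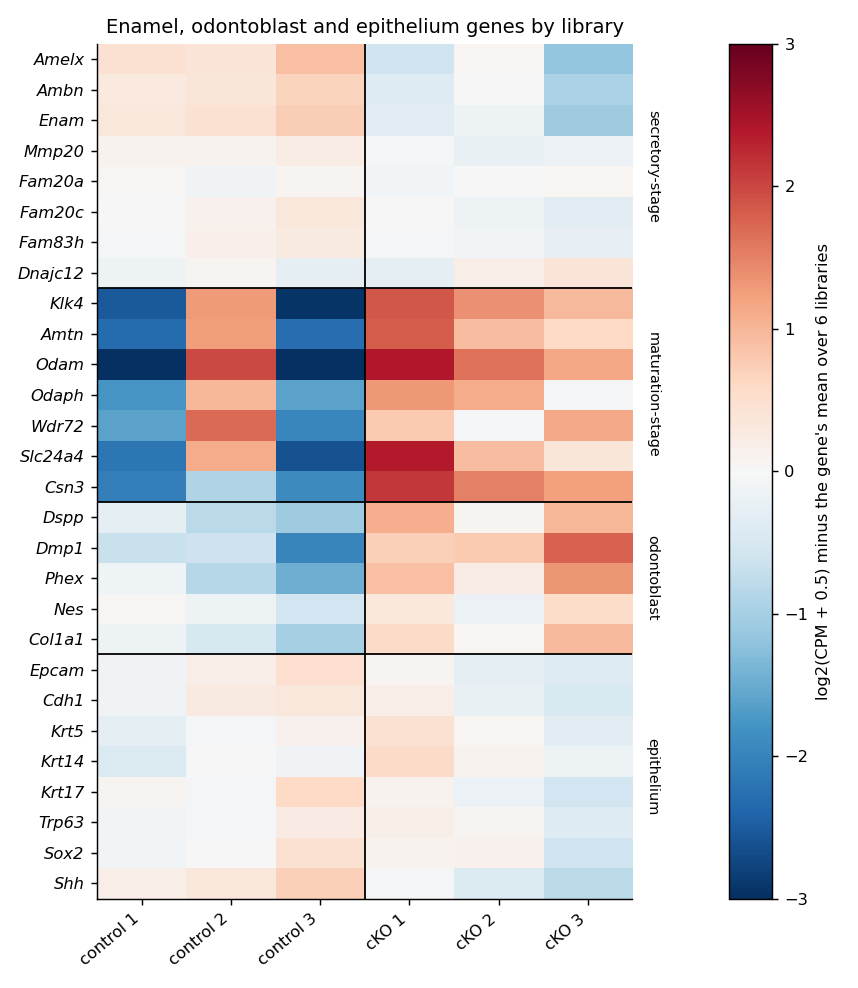
Log2(CPM + 0.5) minus each gene's mean over the 6 libraries, in colour (the scale ends at 3 in both directions), for the secretory-stage, maturation-stage, odontoblast and epithelium genes. Control 2 shares high maturation-stage values with the cKO mice, at a sum of 1802 CPM, except for Csn3. Dspp, Dmp1 and Phex are higher in each cKO mouse.

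Markers of other cell types were measured beside the matrix genes. The 5 odontoblast markers (Dspp, Dmp1, Phex, Nes and Col1a1) summed to 19877, 15197 and 11148 CPM in control mice against 36984, 23402 and 44546 CPM in cKO mice. Most of this sum was Col1a1, which is also a mesenchyme marker, at 14618, 11514 and 8127 CPM in control mice against 24035, 16775 and 31831 CPM in cKO mice. The 7 mesenchyme markers summed to 12467 to 20942 CPM in control mice against 23982 to 41399 CPM in cKO mice. Msx1, a transcription factor of dental mesenchyme, was at 0.48 (edgeR adjusted p = 0.150). The 5 macrophage markers summed to 225 to 282 and 354 to 416 CPM. Those of lowest p were Cd68, a lysosomal protein of macrophages, at 0.60, and Adgre1, which encodes the F4/80 antigen, at 0.50 (edgeR adjusted p = 0.0669 and 0.0819). Of the 8 epithelium markers, 6 had log2 fold changes below 0 and the median was -0.29, with Shh lowest (-0.81, edgeR adjusted p = 0.131) and Epcam at -0.40, while Krt14 and Krt5 were at 0.38 and 0.15. No marker was at 0 counts in all libraries, and none passed by edgeR. At an unadjusted p under 0.05, 4 odontoblast, 5 mesenchyme and 5 macrophage markers were higher and 1 epithelium marker was lower, and DESeq2 called 4, 4 and 5 higher and 1 lower. Of the 6 muscle markers, whose sum was high in control 1 only, 5 were lower at that level and DESeq2 called 0. Of the neutrophil markers, whose sum was high in cKO 1 and cKO 2, all 4 tested were higher and DESeq2 called 3. Over all genes tested, 8.71% were higher and 8.55% lower at an unadjusted p under 0.05, and DESeq2 called 3.62% higher and 3.27% lower. With the mean of the epithelium markers as a covariate, Amelx was at -0.86, Ambn at -0.65, Enam at -0.78 and Mmp20 at -0.24 (edgeR adjusted p from 0.138 to 0.287). In the same fit Fam20c moved from -0.32 to -0.19, Fam83h from -0.25 to -0.14 and Dnajc12 from 0.26 to 0.044, and Fam20a was at -0.025. The SE of Fam20c fell from 0.11 to 0.053 and its edgeR adjusted p from 0.206 to 0.157. For Fam83h and Dnajc12 the edgeR adjusted p rose, to 0.417 and 0.933. Of the 8 secretory-stage genes, 5 were then at an unadjusted p under 0.05 and 0 passed. The part of the cell makeup of the tissue in these differences was not tested further.

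None of the 8 genes shares exonic bases with another gene in GENCODE M21, though the counts may rest on another annotation. Amelx lies inside Arhgap6, which encodes a GTPase-activating protein on the opposite strand. Arhgap6 measured 5.01 to 9.69 CPM over the 6 libraries, against at least 10159 CPM for Amelx. The antisense transcript AV064505 beside Mmp20 measured 0.272 to 0.614 CPM, and K230010J24Rik, opposite Fam83h, 2.37 to 3.67 CPM.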

How the data were processed

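RNA from the proximal incisor of 6 mice (3 per genotype, each with its own number in the titles) was sequenced in single-end reads of 75 cycles, per the labels' protocols. Reads were processed with STAR 2.6.1d and Partek on build mm10, per the submitters' processing notes. Which annotation release, counting settings and strand were used is not given in the sources used here. Estimated counts were deposited, 45.6% to 48.0% of them whole (tolerance 1e-09). A second deposited table of scaled values was not used. Every value column matched a sample.

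Counts were rounded, and filterByExpr with a minimum count of 10 and a total of 15 kept 19264 genes. TMM gave the scaling. Groups were compared with the quasi-likelihood test of edgeR 4.0.16 (R 4.3.3, defaults, no covariates, two-sided, Benjamini-Hochberg over all genes tested, threshold 0.05). A standard error is the log2 fold change divided by the root of F. CPM use TMM-scaled library sizes, where 1 count is worth 0.0149 to 0.0186 CPM. Alternatives were DESeq2 1.42.0, limma-voom 3.58.1, RLE or upper-quartile factors, other filters, each library left out, and the mean of epithelium or maturation-stage genes as a covariate. The test was checked on simulated data. Replicate libraries differed by 46.0 to 73.3 in chi-square per degree of freedom, so none was the same library sequenced again. The value does not tell whether libraries came from separate mice. Replicates are taken as separate mice. The p-values of the fits set each group difference against the spread between these samples, moderated across genes. Coordinates are those of the deposited table, with the end reduced by 1 to match GENCODE M21 (mm10).

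The genes and all lists were chosen with earlier results of these data known. Named genes are the 8, Runx2, up to 4 genes past the threshold or else the 2 of lowest p from each list (muscle and neutrophil markers are given as sums only), and the 5 closest patterns. Itgb6 and Sp6 come from that rule. Of the listed genes, 2 are not reported here and were left out of their lists. The other enamel genes (Lama3, Lamb3, Amtn, Klk4), Krt5, Krt14, Phex, the casein kinases, Ddx3y, the overlapping genes and the promoter motifs were chosen after their values or sequences were seen.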

Additional observations from a re-analysis of the deposited data

How the results depend on the processing

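Each of the 8 secretory-stage genes except Fam20a kept its direction under all 14 alternatives run. Amelx ranged from -1.45 to -0.83, Ambn from -1.09 to -0.62, Enam from -1.17 to -0.77, Mmp20 from -0.35 to -0.24, Fam20c from -0.39 to -0.19, Fam83h from -0.33 to -0.14 and Dnajc12 from 0.044 to 0.45. Fam20a, near 0, turned to 0.0026 with upper-quartile factors, 0.0044 with no filter, 0.0075 with a filter of 1 CPM and 0.13 with the maturation-stage covariate, and ranged from -0.057 to 0.035 with 1 library left out. The count of the 8 genes called was 0 (6 at an unadjusted p under 0.05), and 3 with DESeq2, while 1 of the 8 was at an unadjusted p under 0.05 with the maturation-stage covariate. The count of other inherited enamel defect genes called was 0 (9 at an unadjusted p under 0.05), 6 with DESeq2 (Acp4, Itgb6, Lama3, Lamb3, Relt and Sp6), 1 (Itgb6) with the epithelium covariate and 0 to 2 with 1 library left out. Over all genes edgeR called 5, against 1327 with DESeq2, 0 with a filter of 1 CPM (2843 at an unadjusted p under 0.05), 25 with the epithelium covariate, 0 with the maturation-stage covariate (1266 at an unadjusted p under 0.05) and 0 to 72 with 1 library left out. Apart from the fits with fewer samples, the cause of these changes was not tested. No paired analysis was possible because the labels give the groups no shared replicate numbers. Depth limits Dnajc12 most, at 217 counts in its lowest library (counting error 6.79%).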

Other observations

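Levels were also set against the summed epithelium markers of the same library, a ratio chosen after the values were seen. Per CPM of these 8 markers, Amelx stood at 12.3, 10.2 and 12.5 in control mice against 4.14, 8.55 and 4.59 in cKO mice. Ambn stood at 8.20, 7.43 and 7.82 in control mice against 3.52, 6.15 and 3.93 in cKO mice. Enam stood at 3.02, 2.82 and 2.94 in control mice against 1.30, 1.94 and 1.30 in cKO mice. For these 3 genes the controls lay closer together on this scale than in CPM, and the groups did not overlap for them or for Fam20c. They overlapped for Mmp20, at 0.211, 0.180 and 0.169 in control mice against 0.133, 0.151 and 0.196 in cKO mice, and for Fam20a, Fam83h and Dnajc12. The marker sum is made up largely of Krt5, Krt14 and Krt17, keratins of several epithelial layers, so it does not count ameloblasts. No test was made of these ratios, and the share of all genes whose groups separate on this scale was not computed. In CPM, 12.0% of all genes tested had all controls higher.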
